A study of Homo sapiens with 9 samples.

Results

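The baseline transcriptome of control MDA-MB-231 cells was described from the 2 shControl RNA-seq libraries. Genes were counted as expressed when their mean over both libraries reached 1 FPKM, a level per length of transcript and relative to the mapped fragments of the library, and small RNA genes and mitochondrial tRNAs and rRNAs were left out. Of 63657 gene identifiers in the expression table, 15650 met this rule, and 11202 of these were protein-coding. The rule used only the level itself, so that a gene is expressed is how it was chosen and not a finding. MDA-MB-231 is a cell line grown from the pleural effusion of a patient with breast cancer, and it is classed as triple-negative, meaning that tumour cells make little or no estrogen receptor, progesterone receptor or HER2. The shControl cells carried a control short hairpin RNA, and the control hairpin and its vector are shared by both libraries. The whole series has 9 samples, which also cover chromatin immunoprecipitation, chromatin accessibility and cells with a hairpin against LOXL2, and only the shControl RNA is described here. The labels number the 2 libraries as replicates and do not say whether they came from separate cultures, so their spread may be technical.

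Breast epithelium has an inner luminal layer, marked by keratins 8, 18 and 19 and by hormone receptors, and an outer basal layer, marked by keratins 5 and 14 and by TP63. Carcinoma cells that pass through an epithelial-mesenchymal transition (EMT) lose E-cadherin junctions and gain vimentin under factors such as ZEB1, SNAI2 and TWIST1. Cell lines of the mesenchymal group of triple-negative cancers, to which MDA-MB-231 is usually assigned, are known for this mixed state and for high invasiveness in culture.

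Annotated promoter sequences are printed for 6 genes whose levels are described below. They span the most abundant coding gene, a mesenchymal pair, a secreted signal and a pair of transcription factor genes listed at 0. Which starts these cells use was not measured. Each sequence gives the 250 bases before the RefSeq start on the gene's own strand in GRCh38.p14. Capitals mark CG dinucleotides, the motif TATAAA and the AP-1 motif TGANTCA, and positions count backwards from the start.
S100A6: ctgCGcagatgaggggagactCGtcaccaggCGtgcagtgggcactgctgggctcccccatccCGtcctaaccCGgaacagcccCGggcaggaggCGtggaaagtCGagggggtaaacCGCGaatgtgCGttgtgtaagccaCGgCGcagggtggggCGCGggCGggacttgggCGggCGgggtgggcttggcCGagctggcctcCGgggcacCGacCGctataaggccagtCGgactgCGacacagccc
VIM: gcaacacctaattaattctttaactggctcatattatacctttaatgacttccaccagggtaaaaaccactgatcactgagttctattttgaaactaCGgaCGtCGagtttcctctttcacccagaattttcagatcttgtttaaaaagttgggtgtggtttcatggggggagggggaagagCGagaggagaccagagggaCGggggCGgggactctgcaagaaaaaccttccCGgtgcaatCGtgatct
S100A4: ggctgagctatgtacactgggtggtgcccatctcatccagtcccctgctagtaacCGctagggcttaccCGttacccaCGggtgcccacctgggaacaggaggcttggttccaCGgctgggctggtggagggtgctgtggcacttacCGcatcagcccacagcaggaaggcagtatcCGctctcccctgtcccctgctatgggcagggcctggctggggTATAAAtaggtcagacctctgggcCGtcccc
CXCL8: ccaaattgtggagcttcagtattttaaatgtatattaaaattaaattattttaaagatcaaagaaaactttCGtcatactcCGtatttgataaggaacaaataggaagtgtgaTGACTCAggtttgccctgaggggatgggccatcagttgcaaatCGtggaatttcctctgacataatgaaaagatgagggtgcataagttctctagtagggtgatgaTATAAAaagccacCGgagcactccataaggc
HOXA9: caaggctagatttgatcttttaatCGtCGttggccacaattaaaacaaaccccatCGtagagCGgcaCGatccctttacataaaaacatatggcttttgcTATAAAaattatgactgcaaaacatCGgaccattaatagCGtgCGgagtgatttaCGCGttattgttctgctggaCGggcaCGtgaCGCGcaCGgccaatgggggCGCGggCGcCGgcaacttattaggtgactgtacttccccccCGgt
ELF5: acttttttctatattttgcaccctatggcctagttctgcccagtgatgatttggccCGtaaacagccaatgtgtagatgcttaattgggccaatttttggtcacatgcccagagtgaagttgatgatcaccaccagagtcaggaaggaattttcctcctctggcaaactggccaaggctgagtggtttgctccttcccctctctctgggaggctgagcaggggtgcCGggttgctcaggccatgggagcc

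The S100A6 window (chr1:153535992-153536241, minus strand) holds 24 CG dinucleotides. The VIM window (chr10:17227991-17228240, plus strand) holds 8. The S100A4 window (chr1:153545807-153546056, minus strand) holds 7, with TATAAA beginning at -31. The CXCL8 window (chr4:73740319-73740568, plus strand) holds 4, again with TATAAA at -31, and with TGANTCA at -137. The HOXA9 window (chr7:27165538-27165787, minus strand) holds 20, more than VIM, S100A4 or CXCL8, although HOXA9 was listed at 0 FPKM in both libraries. The ELF5 window (chr11:34511725-34511974, minus strand) holds 2, and ELF5, a luminal progenitor factor, was also listed at 0.

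Over protein-coding genes, promoters rich in CpG were more common in genes of higher level up to 10 FPKM, above which the share levelled off. A CpG ratio (observed CG dinucleotides over the number given by the C and G content) of at least 0.6 in these 250 bases was used as the definition. RefSeq promoters matched 15027 of 18772 protein-coding genes by symbol, and the 11052 genes with 1 listed start were used. CpG-rich promoters made up 23.8% of genes listed at 0 and 40.3% of genes above 0 and under 1 FPKM. The share was 77.7% at 1 to under 10 FPKM, 91.0% at 10 to under 100 FPKM and 91.9% at 100 FPKM and over. Over all 11052 genes it was 65.3% (95% exact binomial interval 64.4 to 66.2%), and it was 87.0% for expressed genes against 33.7% for genes under 1 FPKM. These shares describe promoter letters across genes, which are not independent replicates, and HOXA9 with a ratio of 1.34 at 0 FPKM and S100A4 with 0.28 at 666 FPKM show how far single genes depart from them.

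TATAAA lying wholly between 40 and 20 bases before the start, on the gene's strand, was found in 4.29% of these promoters. It was present in 10.1% of genes listed at 0, in 1.25% of genes at 10 to under 100 FPKM, and in 5.72% of genes at 100 FPKM and over. The share was therefore lowest at middle levels and higher at both ends. On either strand, GGGCGG, the core of the SP1 motif, was present in 27.8% of promoters of genes listed at 0 and in 70.1% at 100 FPKM and over, and it overlaps CG dinucleotides by its own letters. CCAAT ranged only from 32.1% to 42.1% over the 5 levels. TGANTCA, the AP-1 motif seen before CXCL8, was present in 7.72% of promoters of genes listed at 0 and in 4.25% at 100 FPKM and over. CACGTG, the E-box bound by MYC and MAX, was present in 5.57% and 8.21%.

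**Figure D1:**
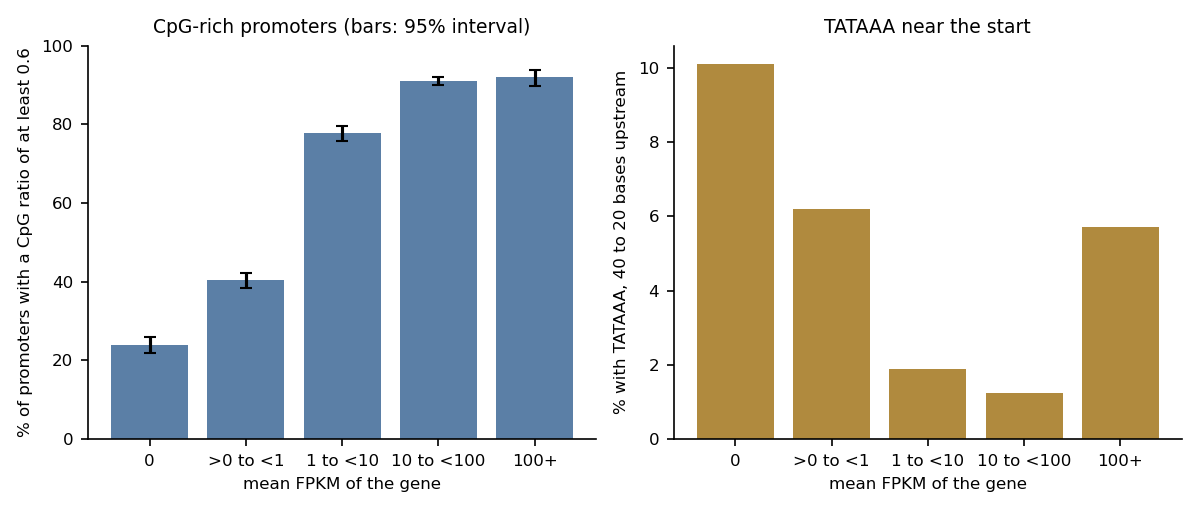
Bars give, for 5 classes of mean FPKM in the 2 shControl libraries (x axis), the percent of 250-base promoters with a CpG ratio of at least 0.6 (left, with 95% exact binomial intervals) and the percent with TATAAA 40 to 20 bases before the start (right). The left bars rise from 23.8% at 0 to 91.9% at 100 FPKM and over, and the right bars are lowest, at 1.25%, for genes of 10 to under 100 FPKM.

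The 11202 expressed genes were 59.7% of the 18772 protein-coding genes in the table, and this share is the background for each gene group below. The groups were chosen with earlier results of these data known, so their shares describe the chosen members only. The median level of all protein-coding genes was 4.60 FPKM, and that of expressed ones 18.9 FPKM. Among protein-coding genes, 3588 lay at 1 to under 10 FPKM, 6410 at 10 to under 100, 1151 at 100 to under 1000 and 53 at 1000 or more. A further 4748 were above 0 but under 1 FPKM, and 2822 were listed at 0 in both libraries. The genes nearest the threshold were IDO1 (1.09 and 0.908 FPKM), SEMA3D and NUDT13 just inside, and NPY1R (1.205 and 0.788 FPKM), EIF3C and C16orf46 just outside. A value of 0 in this table can be a failed estimate: the elongation factor gene EEF1A1, which every cell uses, was listed at 0 in both libraries, while 53 of 54 genes that nearly every cell uses reached 1 FPKM. TAF15 was also listed at 0 in both libraries, and GTF2I and TIMM23 lay under 1 FPKM. How many other listed zeros, or values under 1 FPKM, are of this kind was not tested. Zeros are therefore given as listed, with no fold against them. Because FPKM values hold no read counts, library depth and the limit it sets on low genes are unknown. Beyond protein-coding genes, the expressed set held 556 of 4812 long noncoding RNAs, 1719 of 9300 pseudogenes, all 13 mitochondrially encoded protein genes, 2020 identifiers without a symbol and 140 genes with other or shared symbols.

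The libraries agreed closely on level. Across the 11202 expressed protein-coding genes, log2(FPKM + 1) values had a Pearson r of 0.997 and a Spearman rho of 0.997, both across genes, which are not independent replicates. The SD of the log2 difference was 0.13, and it narrowed from 0.18 at 1 to under 10 FPKM to 0.11 at 10 to under 100 and 0.060 at 100 and over. Differences on the log2(FPKM + 1) scale exceeded 1.5-fold for 52 genes and 2-fold for 10. The widest difference among genes of at least 5 FPKM was that of PDCD11, a ribosomal RNA processing factor, with 32.1 and 113 FPKM. SSH3, a cofilin phosphatase, followed with 8.71 and 3.95 FPKM, and CDKL1, a protein kinase, with 12.5 and 23.9. AGR2, an endoplasmic reticulum protein of luminal cells, had 38.6 and 69.6 FPKM. MED16, SAMD4B, SMIM10L1, PPFIBP2, APOC1 and SCNN1D completed the 10 widest, each between 0.66 and 0.76 higher in replicate 1 on the log2 scale. Levels of these genes are known only within these gaps.

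**Figure D2:**
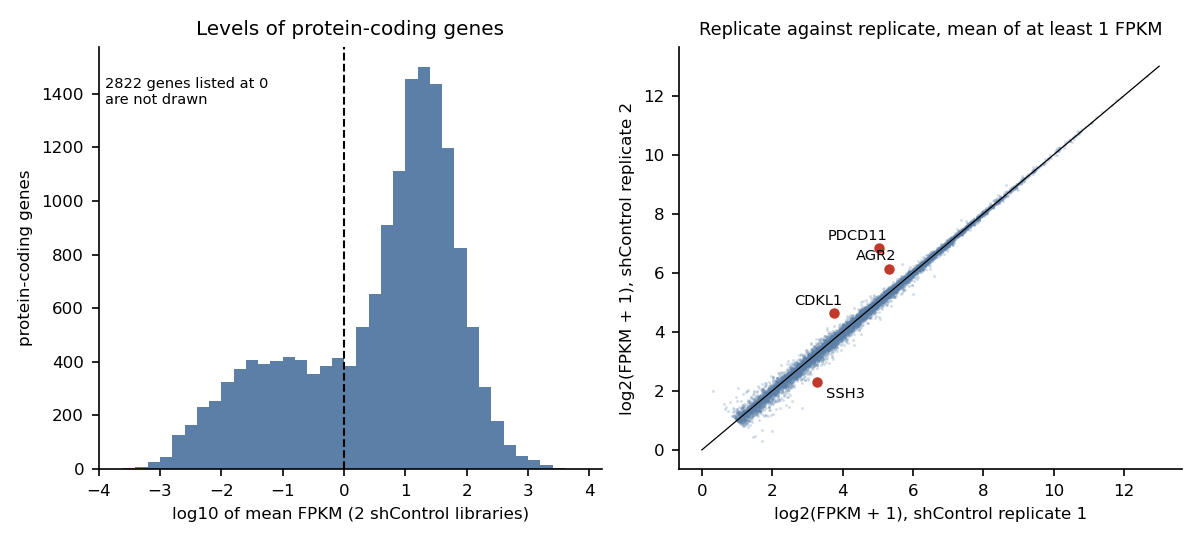
Left, histogram of log10 mean FPKM of protein-coding genes over the 2 shControl libraries, with a dashed line at the 1 FPKM threshold and the 2822 genes listed at 0 not drawn; most genes form a hump near 18.9 FPKM, the median of expressed genes, with a lower shoulder under 1 FPKM. Right, each expressed protein-coding gene as log2(FPKM + 1) in replicate 1 (x axis) against replicate 2 (y axis), with PDCD11, AGR2, CDKL1 and SSH3 in red standing off the diagonal.

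A small set of cytoskeletal, calcium-binding, ribosomal and glycolytic genes led the table. S100A6, a calcium-binding protein, was the most abundant protein-coding gene, with 6503 FPKM in replicate 1 and 6571 in replicate 2. ACTB, cytoplasmic actin, came next with 3928 and 3952 FPKM, followed by TMSB10, an actin-binding thymosin, with 3489 and 3660. RACK1, a ribosome-bound scaffold, had 3254 and 3309 FPKM, and NPM1, a nucleolar chaperone, 2666 and 2818. The libraries did not overlap between any neighbouring pair among these 5 genes. Next were LGALS1 (galectin 1), HSPA8 (a constitutive heat shock protein), RPL37A, RPL30 and VIM, and the ranges of RPL37A (2146 and 2149 FPKM) and RPL30 (2129 and 2156) overlapped. Ribosomal protein genes numbered 10 among the top 25, and ENO1, ALDOA, GAPDH and PKM, which act in glycolysis, were there too, with PKM at 1538 and 1475 FPKM. B2M, ACTG1 and MYL6 completed the 25 along with the ribosomal genes. Together the top 25 held 9.43% and 9.56% of the summed FPKM of protein-coding genes, the top 100 held 21.2% and 21.5%, and the top 1000 held 55.8% and 56.1%. RACK1 and HSPA8 host small nucleolar RNAs in their introns, and whether such RNAs added to their levels was not tested.

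Mitochondrially encoded transcripts reached the same range. MT-ATP8, an ATP synthase subunit, had 3238 and 2957 FPKM, whereas MT-ATP6, another, had 498 and 438. MT-ND4L had 987 and 916 FPKM against 310 and 284 for MT-ND4. Whether gene length shaped these levels was not tested. MT-CO3, a cytochrome oxidase subunit, had 2470 and 2121 FPKM. MT-ND6, a complex I subunit and the lowest of the 13, had 67.9 and 59.2. Replicate 1 was the higher library for all 13, although MT-ND3 was nearly equal, at 1790.8 and 1790.29 FPKM.

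Among long noncoding RNAs, hosts of small nucleolar RNAs were the most abundant. SNHG3 had 9423 and 9621 FPKM, SNHG29 7423 and 9470, GAS5 3487 and 3356, and SNHG1 2952 and 2957. In these genes the small nucleolar RNAs lie within introns, and their part in the levels was not tested. CYTOR, a long noncoding RNA tied to the cytoskeleton, had 178 and 195 FPKM, MALAT1, a nuclear speckle RNA, 94.6 and 82.4, and MANCR, a mitosis-associated RNA described in breast cancer, 43.1 and 44.3. Pseudogenes of abundant genes were also high, with TMSB10P1 at 5207 and 5140 FPKM, UBA52P5 at 1498 and 1505 and MT2P1 at 1355 and 1312. Reads shared with near-identical parent genes make these 3 levels uncertain, and those of the parents too.

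The 5 genes taken as markers of the line were all among the expressed genes and all above 100 FPKM. VIM, the intermediate filament of mesenchymal cells, had 2011 and 2053 FPKM, and S100A4, a calcium-binding protein of motile cells, had 675 and 657. CAV1, the coat protein of caveolae, had 245 and 237 FPKM, and KRT19, a luminal keratin, had 172 and 168. CD68, a lysosomal membrane protein used as a macrophage marker, had 136 and 147 FPKM. The blood cell list that holds CD68 was otherwise low: 4 of its 29 genes reached 1 FPKM, its median was 0.014 FPKM, and its summed level was 143 and 154 FPKM, nearly all from CD68. The other expressed members were all under 10 FPKM, among them CD14 at a mean of 1.93 FPKM. PTPRC (CD45), the defining surface protein of blood cells, had 0.261 and 0.257 FPKM, under 1 in both libraries. In bulk RNA of this kind, a few cells with much RNA and many cells with little cannot be told apart.

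The mesenchymal and cytoskeletal list was expressed almost throughout, with 24 of 27 genes (88.9%) at 1 FPKM or more and a median of 72.6 FPKM. All protein-coding genes gave 59.7% and 4.60 FPKM, and the contrast is descriptive only. The list was chosen with earlier results of these data known, and it holds the given markers VIM and S100A4. Its 6 highest members were LGALS1 at 2378 and 2458 FPKM, VIM, S100A4, CD44 at 457 and 447, ANXA1 at 429 and 438, and NT5E at 340 and 332. CD44 is a hyaluronan receptor, ANXA1 a phospholipid-binding annexin, and NT5E (CD73) an enzyme that makes adenosine at the cell surface. The 3 members under 1 FPKM were classical mesenchymal genes too. SPARC, a matrix glycoprotein, had 0.284 and 0.342 FPKM, CDH2 (N-cadherin) had 0.167 and 0.145, and POSTN (periostin) had a mean of 0.00462.

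Cadherins as a family were mostly low, with 4 of 23 genes at 1 FPKM or more and a median of 0.0371 FPKM. CDH11, the cadherin of osteoblasts and mesenchyme, was the exception in level, with 103 and 91.9 FPKM. CDH4, CDH18 and CDH24 followed at means of 6.58, 2.97 and 2.24 FPKM. CDH1 (E-cadherin), which seals epithelial sheets, had 0.339 and 0.837 FPKM and lay under the threshold in both libraries. These cells therefore had neither E-cadherin nor N-cadherin transcripts at 1 FPKM.

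Genes of epithelial junctions ranged widely in level. In the list of 36, 25 (69.4%) reached 1 FPKM and the median was 4.64 FPKM, close to all protein-coding genes on both measures. CTNNA1 (alpha-catenin), a linker that cells of many types use, was highest at 488 and 473 FPKM. SPINT2, an inhibitor of membrane serine proteases, had 269 and 265 FPKM, and AP1M2, an epithelial adaptor subunit, 53.7 and 54.7. CLDN4 had 22.1 and 22.5 FPKM and CLDN7 23.1 and 21.0, and EPCAM, an epithelial adhesion molecule, 6.85 and 6.69. The splicing regulators of epithelial exons were under the threshold, with ESRP2 at 0.770 and 0.930 FPKM and ESRP1 at a mean of 0.134, as were MUC1 at 0.598, TJP3 at 0.422 and CLDN3 at 0.298. In the claudin family 6 of 24 genes reached 1 FPKM, with CLDN12 the highest at 30.5 and 31.2 FPKM, CLDN4 and CLDN7 next with ranges that overlapped, and CLDN15, CLDN1 and CLDN23 between 1.22 and 2.54 in mean.

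Keratins separated the simple-epithelial set from all others. Only 8 of 55 keratin genes reached 1 FPKM and 28 were listed at 0 in both libraries. KRT7 had 184 and 179 FPKM, KRT19 172 and 168, KRT18 158 and 154, and KRT8 112 and 116, and the libraries did not overlap between neighbours in this order. These 4 are the filaments of simple and glandular epithelium. A wide gap followed, with KRT80 at a mean of 12.4 FPKM, KRT15 at 9.20, KRT10 at 9.09 and KRT81 at 5.45. The basal keratin KRT14 had a mean of 0.105 FPKM and KRT5 was listed at 0.

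**Figure D3:**
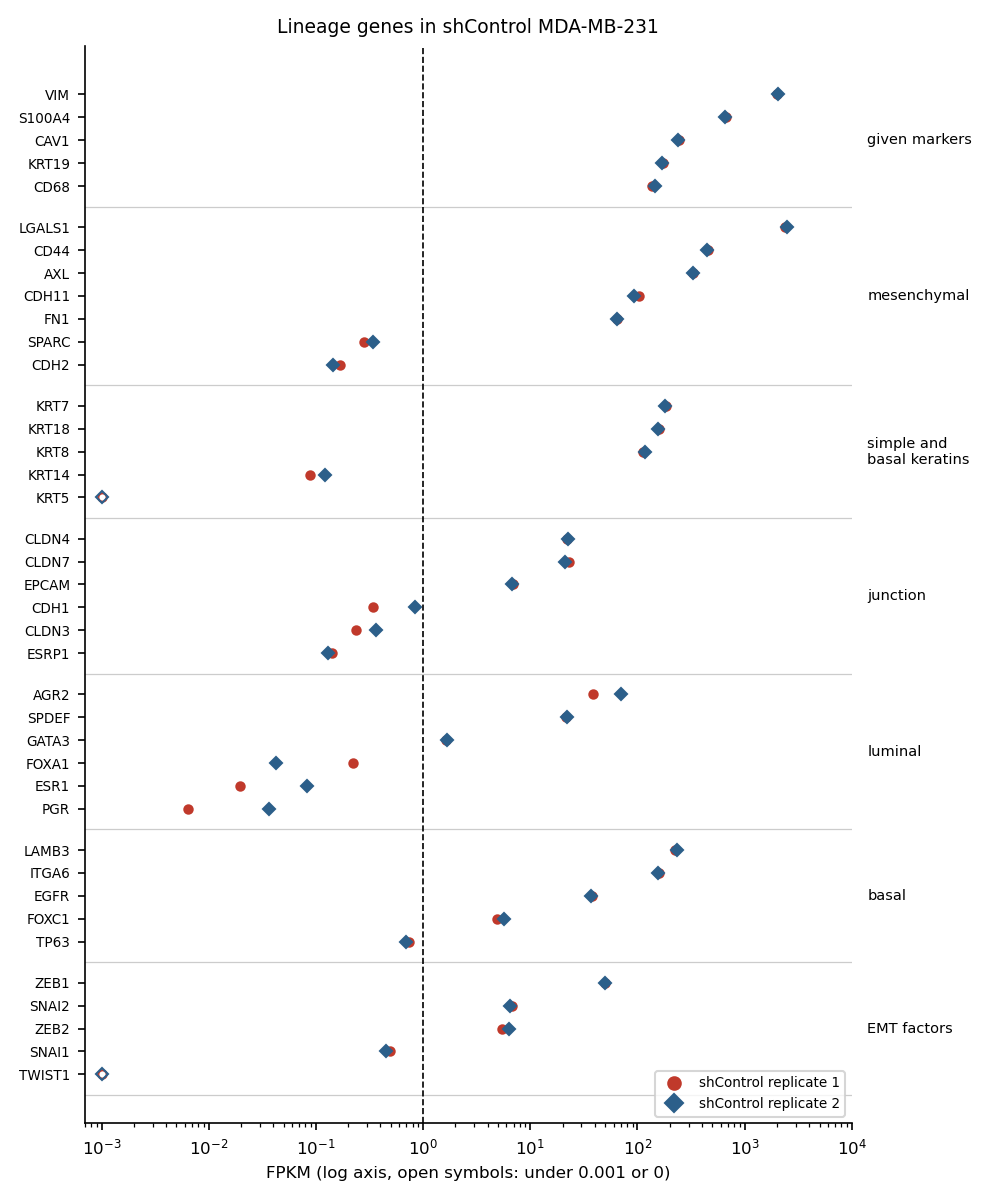
FPKM on a log axis of 39 genes of 7 lineage groups (rows) in shControl replicate 1 (red circles) and replicate 2 (blue diamonds), with a dashed line at 1 FPKM; open symbols stand for values under 0.001 or listed at 0. VIM, S100A4, CAV1 and the simple keratins KRT7, KRT18, KRT8 and KRT19 lie above 100 FPKM in both libraries, while CDH1, CDH2, ESRP1, ESR1 and TWIST1 lie left of the line.

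Of 25 luminal markers, 15 reached 1 FPKM, a share within 1 percentage point of the 59.7% of all protein-coding genes, with a median of 2.39 FPKM. The highest besides KRT19, KRT18 and KRT8 were AGR2, XBP1, the secretory stress factor, at 50.7 and 51.3 FPKM, and MLPH, a melanophilin of vesicle transport, at 48.0 and 44.5. SPDEF, an ETS factor of secretory epithelium, had 21.4 and 22.0 FPKM, and TFF1, a trefoil peptide under estrogen control in other breast lines, had 14.9 and 16.1. GATA3, the luminal master regulator, had 1.65 and 1.66 FPKM, just above the threshold, and its partner FOXA1 had 0.220 and 0.0428. Of 27 basal and myoepithelial markers, 11 (40.7%) reached 1 FPKM, with a median of 0.423 FPKM. Hemidesmosome and laminin genes led it, with LAMB3 at 226 and 236 FPKM, ITGA6 at 160 and 156 and ITGB4 at 44.2 and 43.4. TP63, the basal lineage factor, had 0.746 and 0.695 FPKM, KRT17 0.379 and 0.468, and CDH3 (P-cadherin) a mean of 0.213.

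The receptors that define clinical subtypes fell on both sides of the threshold. ESR1 (estrogen receptor alpha) had 0.0195 and 0.0822 FPKM, PGR (progesterone receptor) 0.00639 and 0.0362, and ESR2 0.199 and 0.177. All 3 were under 1 FPKM in both libraries. ERBB2 (HER2) had 27.6 and 26.4 FPKM. Its chromosomal neighbours, which rise with it when the locus is amplified, gave ORMDL3 52.7 and 57.6, STARD3 49.8 and 48.2, MIEN1 38.7 and 36.0 and GRB7 2.04 and 2.28 FPKM. ERBB2 was thus lower per length than 3 of these neighbours and far under the top of the table. Over ERBB2 and all its listed neighbours, 7 of 10 genes reached 1 FPKM and the median was 2.57 FPKM, well under ERBB2. EGFR had 37.9 and 36.6 FPKM.

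Markers used for stem-like breast cells gave 7 of 12 genes at 1 FPKM or more. CD44 was high and CD24, the surface protein whose low level defines the CD44-high CD24-low state, was listed at 0 in both libraries, with the doubt that attaches to any zero in this table. PROCR, the protein C receptor, had 25.2 and 24.8 FPKM, and ABCG2, a drug efflux pump, 3.58 and 3.50. ALDH1A3 had 3.93 and 3.80 FPKM, whereas ALDH1A1 had a mean of 0.00915; both encode retinaldehyde dehydrogenases. PROM1 (CD133), THY1 and LGR5 had means of 0.0193, 0.0265 and 0.131 FPKM.

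Of the factors that drive EMT, 9 of 17 (52.9%) reached 1 FPKM, near the share of all protein-coding genes. ZEB1, a repressor of CDH1, had 50.1 and 49.4 FPKM, and TCF3 (E2A) had 50.5 and 57.8, ranges that nearly touched. SOX9 had 18.3 and 19.8 FPKM. SNAI2 (Slug) had 6.73 and 6.54 FPKM, SOX4 6.10 and 6.43, ZEB2 5.49 and 6.29, FOXC1 4.92 and 5.67, and TCF4 1.21 and 0.880. SNAI1 (Snail) had 0.496 and 0.455 FPKM, PRRX1 0.432 and 0.456, SNAI3 0.328 and 0.298, and KLF8 a mean of 0.0695. TWIST1, TWIST2, FOXC2 and GSC were listed at 0. ZEB1, SNAI2 and ZEB2 were thus expressed, and the TWIST genes were not recorded.

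Epithelial transcription factors gave 9 of 22 matched genes at 1 FPKM or more, with a median of 0.594 FPKM. EHF, an ETS factor of epithelial cells, stood highest at 99.0 and 98.3 FPKM, above ZEB1 in both libraries. SPDEF, KLF4 (16.7 and 16.6 FPKM), KLF5 (16.1 in both) and TFAP2C (13.4 and 13.1) followed. PAX8 had a mean of 3.69 FPKM and was the only PAX gene of 9 to reach 1 FPKM. GRHL2, a grainyhead factor that sustains CDH1 in other epithelia, had 0.286 and 0 FPKM, GRHL1 a mean of 0.502 and OVOL2 0.0364, and OVOL1 and ELF5 were listed at 0.

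Signal-dependent families differed in the share expressed. All 10 NF-kB genes reached 1 FPKM, with the inhibitor NFKBIA at 236 FPKM in both libraries, NFKB2 at 77.6 and 75.6, and RELA at 64.2 and 65.6. Of 19 AP-1 genes 15 (78.9%) did, with ATF4 at 128 and 130 FPKM, FOSL1 at 119 and 126, FOS at 94.8 and 90.5, FOSL2 at 85.5 and 84.7, JUND at 73.9 and 72.4 and JUNB at 60.5 and 63.9. AP-1 dimers bind TGANTCA, the motif printed in the CXCL8 promoter, and MAF, with a mean of 0.0379 FPKM, was among the 4 that were low. In the MYC network 10 of 13 genes were expressed, led by MYC at 118 and 125 FPKM and its partner MAX at 60.9 and 61.7, while MYCN had a mean of 0.00365 and MYCL 0.305. In the Hippo pathway YAP1 (49.8 and 49.9 FPKM) and WWTR1, or TAZ (49.99 and 46.7), had overlapping ranges, and all 4 TEAD genes were expressed, from TEAD3 at 10.8 and 12.01 to TEAD1 at 34.8 and 32.2. Of RUNX and SMAD genes 10 of 12 were expressed, with CBFB at 63.5 and 65.5, SMAD4 at 62.6 and 62.4, RUNX1 at 19.1 and 19.6 and RUNX2 at 3.97 and 4.07 FPKM. STAT3 was the highest of 7 STAT genes at 74.4 and 72.7 FPKM, and IRF3 the highest of 9 IRF genes at 122 and 129. Of the IRF genes 5 of 9 (55.6%) were expressed, with the blood-cell members IRF4 at 0.0654 and IRF8 listed at 0.

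Larger factor families ranged from mostly expressed to mostly low. Of 28 ETS genes 19 (67.9%) were expressed, with ETV1 at 61.8 and 62.3 FPKM, ETV5 at 55.0 and 59.0, ELK3 at 48.8 and 49.4 and ETS1 at 47.4 and 47.6 behind EHF. Of 47 nuclear receptors 27 (57.4%) were, led by NR3C1 (the glucocorticoid receptor) at 41.9 and 41.0, NR1H2 at 37.8 and 37.0, NR2C1 at 33.5 and 33.6 and RXRB at 30.0 and 31.8 FPKM. The glucocorticoid receptor thus stood far above ESR1 and PGR in the same family. Of 46 forkhead genes 16 (34.8%) were expressed, with the mitotic factor FOXM1 at 62.1 and 57.9 FPKM and FOXA2, a factor of gut and liver, at 17.9 and 18.1, in contrast to FOXA1. SOX genes gave 5 of 19, KLF and SP genes 17 of 26 with KLF6 at 81.0 and 82.2 FPKM, and GATA genes 3 of 6 with GATA6 at 6.14 and 6.58. ZNF zinc finger genes were broadly expressed, 416 of 502 (82.9%), with a median of 4.70 FPKM against 4.60 FPKM for all protein-coding genes.

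HOX genes, which set position along the body axis, were nearly silent, with 4 of 39 (10.3%) at 1 FPKM or more and 20 listed at 0. HOXB9 was the highest, with 6.12 and 6.77 FPKM, followed by HOXD4 at 2.09 and 1.95, HOXD1 at 1.29 and 1.55 and HOXC6 at 0.578 and 1.61. In the HOXA cluster 9 of 11 genes were listed at 0 and the highest, HOXA13, had a mean of 0.138 FPKM. Of 10 HOXB genes 1 was expressed, of 9 HOXC genes 1 and of 9 HOXD genes 2.

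Receptor tyrosine kinases were led by AXL. Of 58 such genes 28 (48.3%) reached 1 FPKM, and the median was 0.665 FPKM. AXL, a receptor of the TAM family, had 329 and 333 FPKM, EPHA2, an ephrin receptor, 185 and 191, and FGFR1 91.7 and 96.2. PTK7 had 57.7 and 61.6 FPKM and MET, the receptor of hepatocyte growth factor, 57.1 in both, and RYK had 41.7 and 38.7. AXL, EPHA2 and FGFR1 were separated from each other and from PTK7 by more than the gap between libraries, whereas PTK7 and MET differed in mean by less than the gap between the libraries of PTK7. EGFR and ERBB2 stood seventh and eighth. FGFR3 and FGFR2 had means of 0.498 and 0.137 FPKM, and NTRK2 0.174.

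Cytokine receptors gave 25 of 49 genes (51.0%), with a median of 1.18 FPKM. IL6ST (gp130), the shared signalling chain of interleukin 6, interleukin 11 and LIF, was alone above 100, with 413 and 386 FPKM. IFNGR1, IFNGR2, IL13RA1, IFNAR1 and IL4R followed between 20.4 and 39.8 FPKM in mean. IL6R, the specific chain for interleukin 6, had 0.269 and 0.414 FPKM. In the TNF receptor superfamily 18 of 29 genes (62.1%) were expressed, led by TNFRSF12A (the TWEAK receptor) at 205 and 206, TNFRSF1A at 107 and 99.9, and the TRAIL receptor TNFRSF10B at 86.0 and 85.0 FPKM. Among TGF-beta superfamily receptors 10 of 14 were expressed, with TGFBR2 at 70.4 and 68.2, TGFBR1 at 57.8 and 54.8 and BMPR1A at 13.6 and 13.95 FPKM. TLR4, the endotoxin receptor, was the highest of 10 Toll-like receptors with 20.4 and 19.8 FPKM, and TLR7 and TLR8, sensors of RNA in blood cells, had means of 0.0154 and 0.00689.

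In the list of WNT, Notch and Hedgehog receptors 16 of 22 genes were expressed, with FZD6 at 50.5 and 50.7, NOTCH2 at 44.7 and 41.1 and LRP5 at 20.8 and 21.0 FPKM. SMO was listed at 0 although PTCH1 had 7.80 and 7.23 FPKM. Plexins and neuropilins gave 9 of 11, with the VEGF and semaphorin co-receptor NRP1 at 171 and 164 FPKM and PLXND1 listed at 0. The zeros of SMO and PLXND1 carry the doubt stated for EEF1A1.

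G protein-coupled receptors were few. For lipids, nucleotides and proteases 11 of 33 matched genes (33.3%) were expressed, with F2RL1, the trypsin-activated receptor PAR2, at 188 FPKM in both libraries, the lysophosphatidic acid receptor LPAR1 at 65.2 and 61.5 and the adenosine receptor ADORA2B at 45.0 and 45.1. For amine transmitters 4 of 34 matched genes (11.8%) were expressed, and the highest, not named here, had a mean of 38.4 FPKM. HRH1 (histamine) followed at 17.4 and 16.9, then HTR7 (serotonin) at 5.18 and 5.46 and ADRA1B at 1.52 and 1.49 FPKM. Of 24 chemokine receptors 3 (12.5%) were expressed, CXCR4 at 27.6 and 27.3, CCRL2 at 13.8 and 13 and CMKLR1 at 3.58 and 2.24 FPKM. CXCR4 is known for its role in the spread of breast cancer to lung and bone, and CCR7 had a mean of 0.270.

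Integrins gave 11 of 26 subunits (42.3%). ITGB1, which pairs with most alpha subunits, had 569 and 548 FPKM, ITGA3 320 and 328, ITGA6 160 and 156, and ITGB5 120 and 112. ITGA2 (64.4 and 60.2 FPKM) and ITGA5 (54.1 and 59.0), the collagen and fibronectin partners of ITGB1, did not overlap. ITGB3 had 0.779 and 0.492 FPKM and ITGB6 a mean of 0.501, so of the partners of ITGAV (42.2 and 37.0 FPKM) ITGB5 was the abundant one beside ITGB1.

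Secreted signals included chemokines that attract neutrophils and colony-stimulating factors. Of 34 chemokine genes 9 (26.5%) reached 1 FPKM. CXCL8 (interleukin 8) had 317 and 349 FPKM, CXCL1 99.2 and 103, CXCL2 30.2 and 31.2, and CXCL3 13.9 and 14.1. These 4 are ligands of CXCR2, and the next chemokine, CCL26, had a mean of 4.47 FPKM. CCL2 and CCL20 had means of 0.542 and 0.520, and CXCL12 was listed at 0. Of 46 interleukin and colony-stimulating factor genes 19 (41.3%) were expressed. MIF, a macrophage inhibitory factor that many cells make, had 403 and 427 FPKM, CSF2 (GM-CSF) 126 and 127, and CSF1 77.1 and 67.2. IL11, a cytokine of bone metastasis, had 60.6 and 65.6 FPKM, IL6 36.4 and 38.2, and LIF 24.4 and 21.7, while TNF had a mean of 0.216 FPKM.

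Growth factors gave 33 of 53 genes (62.3%) with a median of 3.67 FPKM. GRN (progranulin) had 268 and 255 FPKM, CCN1, a matricellular YAP target, 123 and 122, VEGFA 121 and 116, GAS6 103 and 104, CCN2 91.9 and 98.3, and PDGFC 62.7 and 61.5. AREG, PDGFB and FGF2 had means of 0.319, 0.714 and 0.048 FPKM. In the TGF-beta superfamily 18 of 37 ligands and antagonists were expressed, with FSTL1 at 124 and 116, BMP4 at 32.0 and 30.8 and its antagonist NOG at 18.7 and 19.2 FPKM. TGFB1 (25.01 and 24.8 FPKM) and TGFB2 (26.6 and 23.1) overlapped. WNT ligands gave 4 of 19, with WNT5B highest at 9.32 and 9.79 FPKM and WNT5A at a mean of 0.526. In the IGF-binding family IGFBP4 had 375 and 343 FPKM and IGFBP7 145 and 147, whereas IGFBP5 had a mean of 0.00869.

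Ligands and receptors were then set side by side in 44 known pairs, chosen after the levels had been seen. Both genes reached 1 FPKM in 29 pairs, only the ligand in 9, only the receptor in 6 and neither in 0. These counts, the 0 included, depend on that choice of pairs. Among all protein-coding genes, 59.7% reached 1 FPKM singly. GAS6 with AXL, VEGFA with NRP1, PLAU (336 and 321 FPKM) with its receptor PLAUR (108 and 106), MIF with CD74, THBS1 with CD47 and JAG1 (44.4 and 40.4) with NOTCH2 had both genes above 40 FPKM. The ligand stood without its receptor for CXCL8 with CXCR1 and CXCR2, both listed at 0, and for PDGFC with PDGFRA, at a mean of 0.0506 FPKM. CSF2 had the binding chain CSF2RA at 15.98 and 15.5 FPKM but the signalling chain CSF2RB at a mean of 0.00757. IL6 had the reverse, with IL6ST abundant and IL6R under the threshold. The receptor stood without its ligand for MET, whose ligand HGF had 0 and 0.00428 FPKM, for CXCR4 with CXCL12, for IGF1R (11.4 and 11.1) with IGF1 at a mean of 0.00547, and for FGFR1 with FGF2. Transcripts of a pair say nothing of protein or signalling, which these libraries did not measure.

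**Figure D4:**
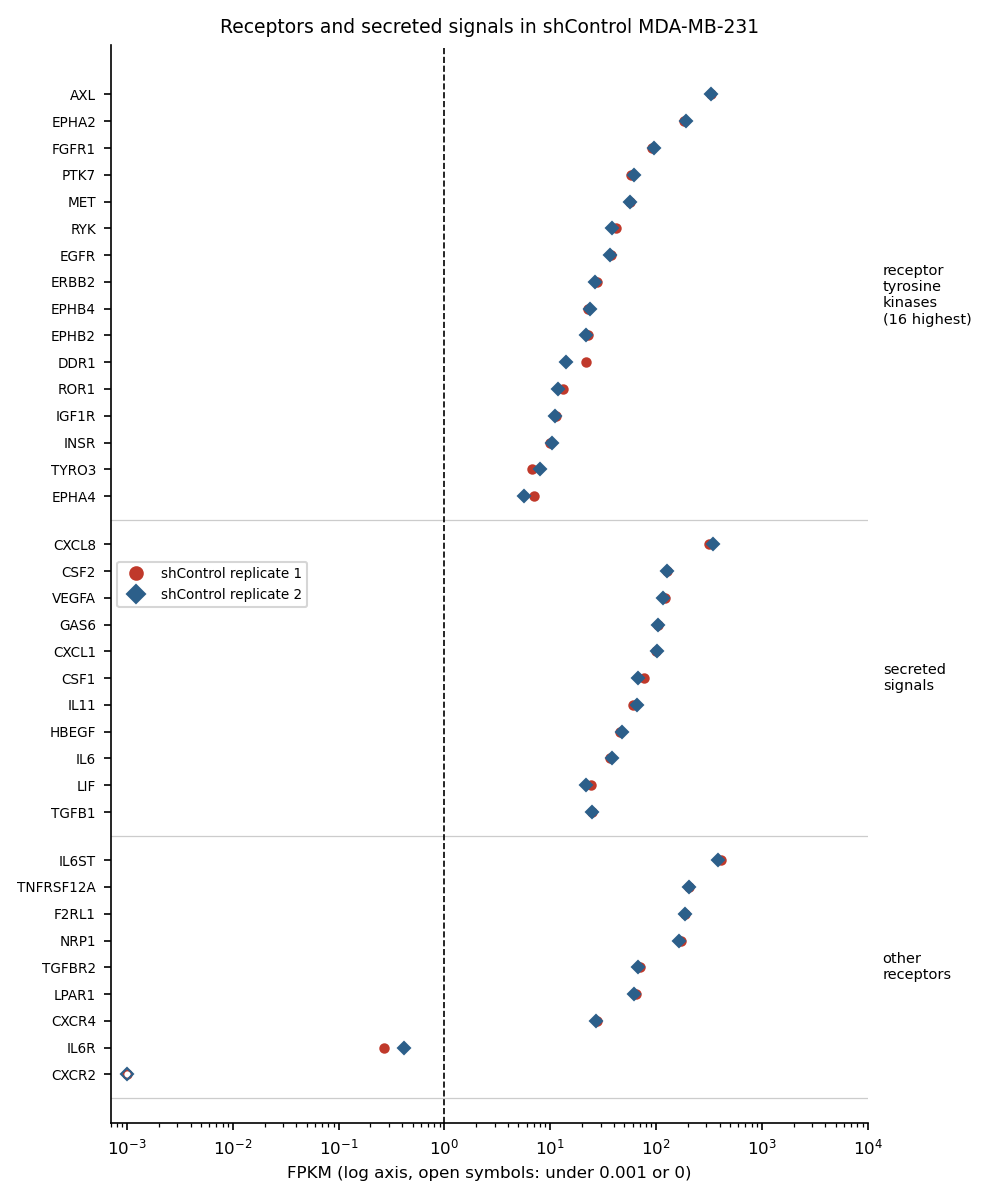
FPKM on a log axis of the 16 highest receptor tyrosine kinases, 11 secreted signals and 9 other receptors (rows) in shControl replicate 1 (red circles) and replicate 2 (blue diamonds), with a dashed line at 1 FPKM; open symbols stand for values under 0.001 or listed at 0. AXL, EPHA2, CXCL8, IL6ST, TNFRSF12A, F2RL1 and NRP1 lie above 100 FPKM in both libraries, and IL6R and CXCR2 lie left of the line.

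Matrix genes were expressed in part. Collagens gave 17 of 44 genes (38.6%) with a median of 0.163 FPKM. COL13A1, a transmembrane collagen, had 81.7 and 89.9 FPKM, COL8A1 40.9 and 40.1, and COL4A2 of basement membranes 31.0 and 30.4. The fibrillar COL1A1 had 4.12 and 4.73 FPKM, COL1A2 a mean of 0.0386 and COL3A1 0.00501, so the chains of type I collagen were unequal. Of 44 laminin and other matrix genes 22 were expressed, with THBS1 (thrombospondin 1) at 505 and 447, LAMB3 at 226 and 236, LAMB2 at 176 and 177, LAMC1 at 121 and 118 and FN1 (fibronectin) at 64.9 and 64.3 FPKM. Other basement membrane and matricellular genes were low, among them LAMA2 with a mean of 0.762 FPKM, THBS2 with 0.475 and SPARC, and VCAN and DCN, proteoglycans of stroma, had means of 0.126 and 0.0796. LOXL2, the lysyl oxidase that the study's other hairpin targets, had 85.5 and 84.5 FPKM in these control libraries, above LOXL4 (26.9 and 24.8), LOXL1 (12.7 and 10.8) and LOX (5.97 and 5.86), and LOXL3 had a mean of 0.768.

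Few metalloprotease genes were expressed. Of 23 MMP genes 4 (17.4%) reached 1 FPKM. MMP14, a membrane-bound collagenase, had 188 and 193 FPKM and MMP1, an interstitial collagenase, 41.2 and 44.6, and MMP15 and MMP11 had means of 1.64 and 1.41. The gelatinases MMP2 and MMP9 had means of 0.0290 and 0.101 FPKM. In the list of plasminogen system, cathepsin and inhibitor genes 24 of 32 were expressed with a median of 50.1 FPKM. CST3 (cystatin C) had 375 and 370 FPKM, PLAU (urokinase) 336 and 321, TIMP1 329 and 318, CTSD (cathepsin D) 284 and 281, CTSC 208 and 214 and F3, the tissue factor that starts clotting, 198 in both. PLAU and TIMP1 had overlapping ranges. Serpins gave 11 of 34, with the collagen chaperone SERPINH1 at 126 and 131 FPKM.

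On the surface, antigen presentation genes were expressed in both classes. Of 18 HLA genes and partners 16 (88.9%) reached 1 FPKM, with a median of 60.6 FPKM. B2M, the light chain of class I, had 1883 and 1940 FPKM, and HLA-B, a class I heavy chain, 200 and 211. The class II genes CD74 (499 and 509 FPKM), HLA-DRA (225 and 234) and HLA-DPA1 (144 and 141) were the highest of their class, and CIITA, the class II transactivator, had 11.7 and 11.9. Other class II genes were lower, with HLA-DPB1 at a mean of 34.0 FPKM, HLA-DMB at 22.1, HLA-DQB1 at 6.66, HLA-DOA at 1.08 and HLA-DQA1 at 0.486. Class II genes are typical of antigen-presenting blood cells, whose marker list was low as given beside CD68, and the near-identical copies in the HLA region make single HLA levels uncertain. Immune checkpoint and phagocytosis genes gave 21 of 29 (72.4%), with NT5E, HLA-E (131 and 139 FPKM), CD47 (104 and 109), NECTIN2 (87.0 and 85.5), LGALS3 (85.3 and 84.8) and PVR (71.6 in both) the highest. CD274 (PD-L1) had 13.1 and 13.2 FPKM, CD80 a mean of 0.00348, and CD86 was listed at 0.

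Other surface genes included EMP3, a membrane protein of the PMP22 family and the highest of the adhesion list, with 679 and 707 FPKM. In that list 35 of 44 genes (79.5%) were expressed, among them the exosome tetraspanin CD63 at 431 and 448, CD59, a complement inhibitor, at 358 and 361, BSG (basigin) at 342 and 346 and TFRC, the transferrin receptor, at 336 and 345 FPKM. Of 77 genes with a CD number as symbol only 24 (31.2%) were expressed, and the 53 under the threshold included the blood-cell antigens CD8A (0.535 FPKM), CD34 (0.302) and CD33 (0.286). Of 14 glucose transporters SLC2A1 (GLUT1) dominated, with 206 and 204 FPKM against 11.8 and 9.74 for SLC2A3. Amino acid transporters gave 6 of 13, with SLC7A5 (LAT1) at 54.7 and 48.9 FPKM, SLC7A6 at 35.3 and 30.7 and SLC7A11, the cystine exchanger, at 9.53 and 9.46. Potassium channel genes were nearly all low, 9 of 95 (9.47%), with KCNN4 highest at 24.98 and 23.6 FPKM.

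**Figure D5:**
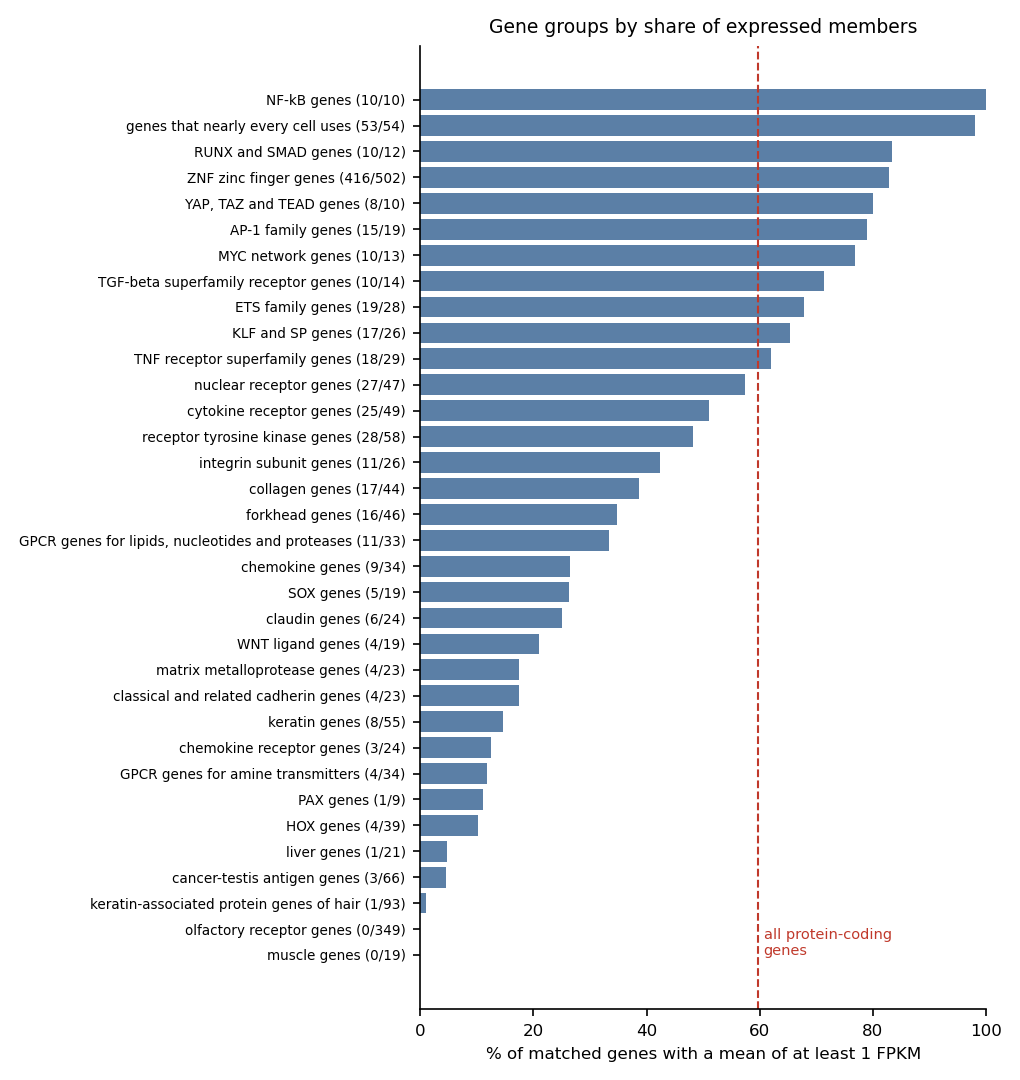
Bars give the percent of matched genes at or above 1 FPKM in mean for 34 gene groups (rows, with the count of expressed genes over matched genes in brackets), and the dashed red line marks the 59.7% of all protein-coding genes. NF-kB genes are at 100%, ZNF genes at 82.9% and receptor tyrosine kinases at 48.3%, while HOX genes, chemokine receptors and tissue-specific groups lie far to the left.

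Genes of unrelated tissues were low or listed at 0. None of 349 olfactory receptor genes reached 1 FPKM, and 294 were listed at 0, with OR10A3 the highest at 0.767 and 0.583 FPKM. None of 27 taste receptor, 39 beta-defensin, 19 muscle, 19 germ cell and pluripotency, or 21 pancreas, gut, kidney and lung genes reached it either. Hair keratin-associated proteins gave 1 of 93, KRTAP2-3 at 4.204 and 3.73 FPKM. Liver genes gave 1 of 21, SERPINA1 (alpha-1-antitrypsin) at 10.7 and 9.75, while ALB (albumin) had a mean of 0.158. Neuronal genes gave 4 of 20 matched, TUBB3 (a neuronal tubulin) at 75.3 and 78.5, ENO2 at 19.6 and 20.7, GAD1 at 4.14 and 3.58 and SYT1 at 2.25 and 2.16 FPKM. Genes of embryonic kidney and neural-like cells, the type of another widely used line, gave 4 of 13 matched, none above the mean of 4.71 FPKM of NES.

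Stromal and endothelial lists held a few expressed members each. Of 19 fibroblast genes 7 reached 1 FPKM, the summed level was 695 and 677 FPKM, and S100A4 made up nearly all of it. The other expressed members were all under 10 FPKM, among them COL1A1, as given above, and PDGFRB at a mean of 1.86 FPKM. DCN, LUM, FAP, PDGFRA and THY1 had means from 0.0265 to 0.131 FPKM, and DPT and SFRP2 were listed at 0. Of 15 endothelial genes 5 were expressed, ESAM, a tight junction adhesion molecule, at 47.1 and 47.4, ICAM2 at 11.9 and 12.7, ROBO4 at 5.96 and 5.41, TIE1 at 1.16 and 1.68 and KDR at 1.46 and 1.35 FPKM. The endothelial genes PECAM1 and ERG were listed at 0 and VWF and CDH5 had means of 0.00250 and 0.0260 FPKM. Outside its own lineage, MITF, the melanocyte factor, had 16.5 and 15.2 FPKM, whereas its target gene TYR had a mean of 0.00353.

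Cancer-testis antigens, which are restricted to germ cells in normal tissue and switched on in some tumours, gave 3 of 66 genes (4.55%). PAGE5 had 60.4 and 53.8 FPKM, SSX1 7.85 and 9.06, and MAGEC2 2.08 and 2.18. MAGEC1, at 0.865 and 0.800 FPKM, and MAGEA6, at 0.518 and 0.576, came next, and 44 of the 66 were listed at 0. The 3 expressed members come from different families.

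Tumour suppressors and oncogenes were expressed in 41 of 46 cases (89.1%), with a median of 24.4 FPKM. CCND1 (cyclin D1) was highest with 321 and 328 FPKM, followed by MCL1 at 161 and 162, BCL2L1 at 155 and 157, CDK4 at 142 and 146 and HRAS at 142 and 132. The 5 members under 1 FPKM were CDKN2A, CDKN2B, MTAP, KLHL9 and DMRTA1, all listed at 0, and they were placed in the list with this known.

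These 5 genes lie in 1 block on chromosome 9. In the RefSeq order of GRCh38.p14, 22 neighbouring protein-coding genes from HACD4 to DMRTA1 were all listed at 0 in both libraries. They comprise 16 interferon genes, which most unstimulated cells do not transcribe, together with HACD4, KLHL9, MTAP, CDKN2A, CDKN2B and DMRTA1. MTAP, an enzyme of methionine salvage, and KLHL9, a ubiquitin ligase adaptor, are active in most tissues, and CDKN2A encodes the cell cycle inhibitor p16. On one side the next genes FOCAD and MLLT3 had 14.2 and 13.1 FPKM and 10.2 and 9.15 FPKM. On the other side ELAVL2 and IZUMO3, genes of neurons and sperm, had a mean of 0.00755 FPKM and a listed 0, and TUSC1 and CAAP1 had 3.80 and 3.71 FPKM and 24.99 and 26.7 FPKM. Loss of CDKN2A has been described in MDA-MB-231, but copy number was not measured in these libraries and its part in the zeros was not tested. Runs of at least 8 neighbouring genes at 0 numbered 36 in all, and in 19 of them most genes were olfactory receptors, hair keratin-associated proteins or beta-defensins. The longest was a run of 48 genes on chromosome 11 with 44 olfactory receptors. Another of 26 genes on chromosome 1 held late cornified envelope and small proline-rich genes of the skin. The doubt stated for EEF1A1 applies to the zeros in all these runs.

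A further run of 14 genes on chromosome 1, from SPRR2B to S100A7, reached the S100 family, whose members were sharply divided. Of 20 S100 genes 10 reached 1 FPKM and 5 were listed at 0. Beside S100A6 and S100A4, S100A11 had 539 and 564 FPKM, S100A10, the partner of annexin A2, 411 in both, S100A13 197 and 194, S100A16 191 and 198 and S100A2 117 and 99.3. S100A7, S100A7A, S100A8, S100A9 and S100A12, which mark inflamed skin and myeloid cells, were listed at 0, and S100A14 had a mean of 0.153 FPKM.

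By chromosome, the share of protein-coding genes at 1 FPKM or more was lowest on X, with 371 of 811 genes (45.7%), where many of the cancer-testis genes lie. It was 52.1% on chromosome 21 and 52.6% on chromosome 11, which hold keratin-associated and olfactory runs. The other chromosomes lay between 58.3% and 64.5%, the last on chromosome 15. Chromosomes 1 (58.3%) and 17 (59.6%) hold olfactory or keratin-associated runs too. The part of these gene families in the shares was not tested.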

How the data were processed

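Total RNA of shControl MDA-MB-231 cells was sequenced in 2 libraries. The expression table deposited by the authors is in FPKM. Per the submitters' processing notes, Bowtie and Cufflinks were used with GRCh37, and no versions are listed. The annotation and the counting of strand are not given in the sources used here. Columns were assigned by name to the replicates of the labels. Symbols and biotypes came from a gene name table and RefSeq (GRCh38.p14), matching 62.4% of identifiers and 88.0% of those at 1 FPKM or more, and 937 genes with shared symbols were left out of named levels. Among small RNA genes, whose values fall on steps, the commonest ratio of replicate 1 to replicate 2 was 0.988. Summaries were computed with Python 3.11.15, pandas 2.3.3, numpy 2.4.6 and scipy 1.17.1, and the counts, the replicate spread and the CpG ratio were tested on simulated data. Differences between replicates used log2(FPKM + 1). With 1 group of 2 libraries no test was made. Members and the 75 gene lists were chosen with earlier results of these data known. Named were the 25 most abundant coding genes, any member of the lineage marker, clinical receptor, EMT factor and stem-like lists and of lists of at most 15 genes, the 6 highest and up to 5 low members of longer lists, the 10 widest replicate differences at 5 FPKM or more and the 3 genes on each side of the threshold. Other named genes were chosen after their values were seen. The peak lists and the other RNA libraries were not used here. Some members of these lists are counted but not named here.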

Additional observations from a re-analysis of the deposited data

How the results depend on the processing

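The counts of expressed genes stayed within 1.5 times of those reported under thresholds of 0.5 and 5 FPKM, with both libraries required to reach the threshold, and with values scaled to 1 sum per library over protein-coding genes (factors 1.70 and 1.69). For all expressed genes they ran from 15526 to 15603 with 1 replicate left out, and for protein-coding genes from 11178 to 11229. The top 25 genes' share, 9.49% as a mean of both libraries, was 6.69% of the sum over all genes other than small RNA genes, and 9.78% with mitochondrially encoded genes included, an alternative added after seeing the data. It ranged from 9.43% to 9.56% with 1 replicate left out. The SD between replicates was 0.17 with log2(FPKM + 0.1), 0.091 with log2(FPKM + 5), 0.12 without a filter and 0.10 at 10 FPKM or more. CpG-rich promoters of expressed genes made up 85.6% at a threshold of 0.5 FPKM, 89.8% at 5 FPKM, 70.0% at a ratio of 0.75 and 88.5% with all matched genes and their most CpG-rich start. Under the threshold the shares in the same order were 31.8%, 41.4%, 22.2% and 38.6%, and these 4, like the start with the highest ratio, were added after seeing the data. Of 75 list counts, 27 moved by over 1.5 times at 5 FPKM, 8 at 0.5 FPKM and 4 after scaling, and 0 with a replicate left out. No paired analysis was possible because only 1 group was described. Unknown depth limits every statement on genes under 1 FPKM, and listed zeros may be failed estimates.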
